A study of Mus musculus with 6 samples.

Results

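The genes of the mitochondrial ribosome and of mitochondrial protein import were taken by symbol. A gene belonged to the ribosome set if its symbol began with Mrpl or Mrps followed by a digit, and to the import set if its symbol began with Timm or Tomm. Of the 22564 protein-coding genes with values, 102 met the rule. The ribosome set held 77 of them, 47 named for the large subunit and 30 for the small subunit, and the import set held 25, of which 15 were Timm and 10 were Tomm genes. Levels were compared between 3 control libraries and 3 libraries from mice given low-dose tunicamycin, a drug that blocks N-linked glycosylation and so causes stress in the endoplasmic reticulum. All 6 libraries were labelled as liver of male C57BL/6 mice at an age of 10 weeks. The tunicamycin group received 0.2 mg/kg intraperitoneally every day for 14 days, and the sources used here do not say whether the controls received vehicle. No label ties a library to its own mouse, so the p-values rest on the spread between these libraries, which may be technical. For limma, the main test, that spread is the trend over all genes tested and not each gene's own.

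Mitochondria carry their own ribosome, which makes the few membrane proteins encoded in mitochondrial DNA. Its RNA is mitochondrial, but all of its proteins are encoded in the nucleus, made in the cytosol and imported. Import starts at the TOM complex of the outer membrane, where receptors (Tomm20, Tomm22, Tomm70a) pass precursors to the Tomm40 channel. The TIM23 complex then takes proteins with a cleavable presequence into the matrix, while small TIM chaperones carry membrane proteins across the intermembrane space to the TIM22 complex. Hepatocytes are rich in mitochondria, and liver RNA normally holds transcripts of both machineries.

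Levels are given as FPKM, fragments scaled to transcript length and library size, and as reads recovered from the deposited count columns. The recovered reads on protein-coding genes numbered 541022 to 661145 per library, which is not the depth of sequencing. Of those genes, 13.1% to 23.7% had a read in a given library, control 1 having the fewest. Since an exact 0 may mark an estimate that failed, such genes are called listed at 0. With 0 reads, a gene could still make up 0.000454% to 0.000555% of the reads, depending on the library (a limit of 3 reads, for counting error only). The label as liver had weak support from its markers. Of 15 hepatocyte markers in the table, 11 had no read in any library (Ttr, Apoa1, Apoh, Serpina1a, Ahsg, Cps1, Cyp2e1, Cyp3a11, Cyp7a1, G6pc and Pck1), and the summed level of the list was 297 to 492 FPKM among the controls and 160 to 192 FPKM after tunicamycin. The 4 markers with reads did not move together. Alb was lower and Apob higher in every tunicamycin library, Fgb had a positive and Hnf4a a negative value, and limma called none of them. All 6 genes listed for cholangiocytes or other epithelium (Krt7, Krt8, Krt18, Krt19, Epcam and Sox9) had reads. Epcam had them in control 3 and tunicamycin 2 alone. The list summed to 442 to 569 FPKM among the controls and 368 to 452 FPKM after tunicamycin. These genes did not move together, as 3 had positive limma log2 fold changes (Krt19, Epcam and Sox9) and 3 negative ones (Krt7, Krt8 and Krt18). Krt18, Krt7 and Krt8 had means of 233, 118 and 111 FPKM among the controls and 192, 26.6 and 54.9 FPKM after tunicamycin. Krt19, Sox9 and Epcam had means of 41.1, 7.08 and 4.13 FPKM among the controls and 105, 12.3 and 8.98 FPKM after tunicamycin. Whether this list tells other epithelium from hepatocytes was not tested. The 4 markers of dividing cells also had reads, with sums of 169 to 474 and 53.8 to 584 FPKM. Every red cell (4), Kupffer cell (5) and endothelial (5) marker in the table lacked reads. The part of these markers in the results was not tested, and in bulk RNA fewer cells of a type and less RNA per cell cannot be told apart.

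Both gene sets were detected in part, and which members had reads changed from library to library. Ribosome genes with at least 1 read numbered 15, 30 and 31 (controls 1, 2 and 3) and 43, 22 and 22 (tunicamycin 1, 2 and 3). As shares of the 77 genes these were 19.5%, 39.0% and 40.3% against 55.8%, 28.6% and 28.6%. The groups overlapped, tunicamycin 1 having the most and control 1 the fewest. Import genes with a read numbered 7, 12 and 8 among the controls and 13, 8 and 10 after tunicamycin, again with overlap. In each library these shares lay above that of all protein-coding genes.

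**Figure D1:**
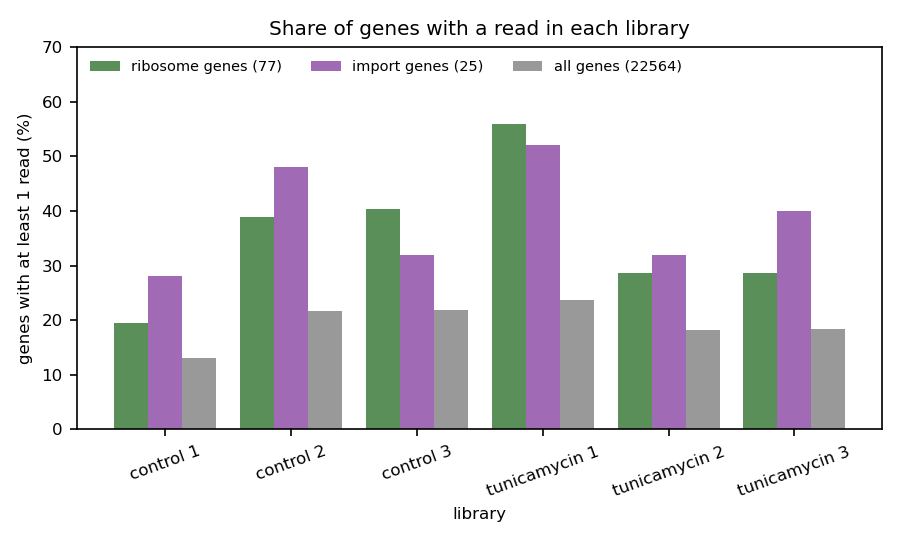
Percent of genes with at least 1 read in each of the 6 libraries (bars, y axis), for the 77 ribosome genes, the 25 import genes and all 22564 genes of the table. Tunicamycin 1 had the highest share for both sets (55.8% and 52%) and control 1 the lowest (19.5% and 28%).

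Over the 6 libraries, 10 ribosome genes (13.0%) and 6 import genes (24%) had no read at all, against 62.0% of all genes. The 10 were Mrpl18, Mrpl19, Mrpl23, Mrpl33, Mrpl47, Mrpl48, Mrpl52, Mrpl54, Mrps18c and Mrps36-ps1, the last of which is a processed pseudogene in GENCODE M21. The 6 import genes were Timm10, Timm22, Timm8a2, Timmdc1, Tomm20l and Tomm7. They include the channel of the TIM22 complex, the small TIM chaperones Timm10 and Timm8a2 and a small TOM subunit, Tomm7. No ribosome gene and 1 import gene, Tomm6, had reads in all 6 libraries, against 4.71% of all genes. Reads in 5 libraries were found for 7 ribosome genes (Mrpl15, Mrpl17, Mrpl37, Mrpl38, Mrpl45, Mrpl51 and Mrps18b). Of the ribosome genes, 9 had reads in control libraries alone, 15 in tunicamycin libraries alone and 43 in both groups, and the corresponding import counts were 3, 3 and 13. Shared detection was much the same within and between groups. Controls 1 and 3, for example, shared 4 ribosome genes with reads, 26.7% of those in control 1 and 12.9% of those in control 3, while control 1 and tunicamycin 1 shared 11, which were 73.3% and 25.6%. Taking each pair as a share of both its lists, the shared ribosome genes were 12.9% to 63.6% (median 40.9%) within a group and 22.7% to 76.7% (median 41.0%) between groups.

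**Figure D2:**
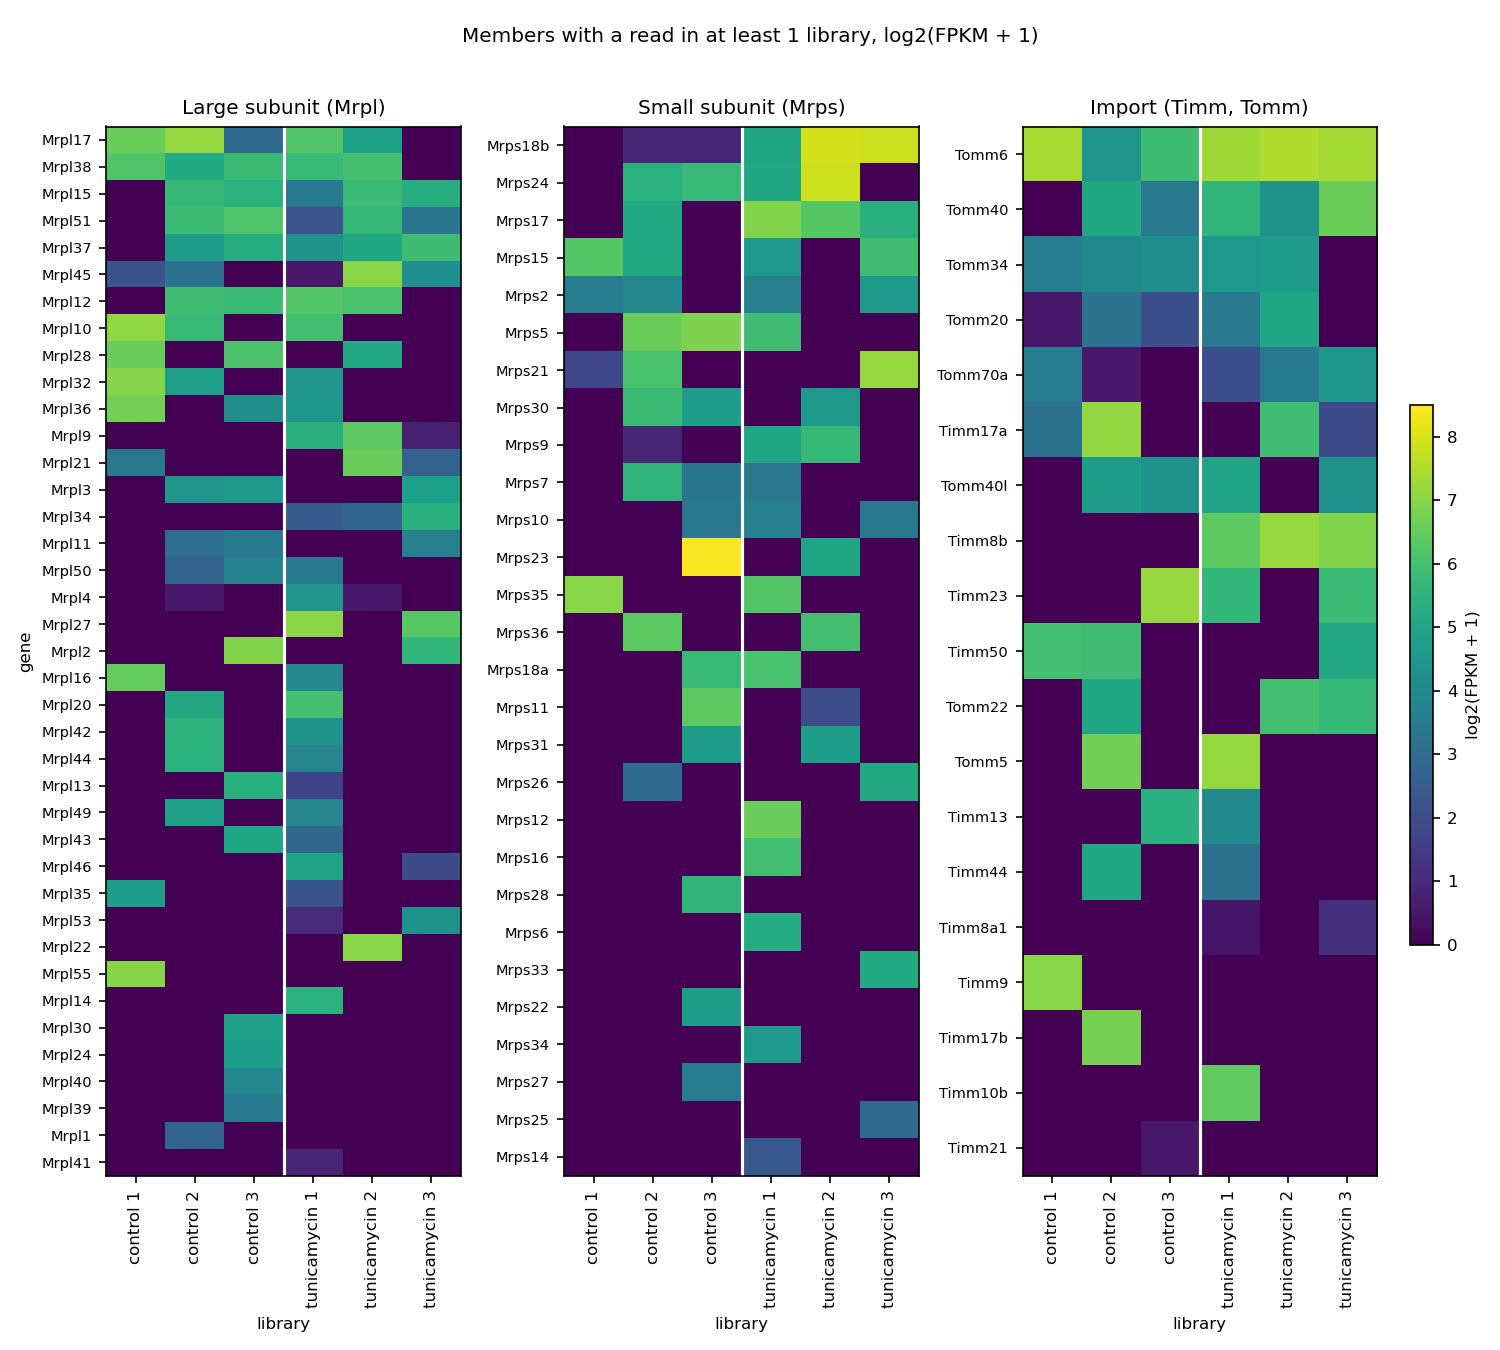
log2(FPKM + 1) in each library (columns, controls left of the white line) for the 67 ribosome and 19 import genes with a read in at least 1 library (rows, in order of the number of libraries with a read). Most cells are at 0, only Tomm6 has reads in all 6 libraries, and Timm8b, Mrps18b, Mrps17, Mrpl9 and Mrpl34 are the rows in which every tunicamycin library is above every control.

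Where a member was detected, its read number tended to lie near a value set by the library. The most frequent number of reads per gene, over all genes, was 139, 48.6 and 56.5 among the controls and 41.9, 69.0 and 69.0 after tunicamycin. Of the ribosome genes with at least 10 reads, 11 of 13, 18 of 27 and 25 of 30 among the controls and 30 of 37, 18 of 19 and 18 of 19 after tunicamycin lay within 2-fold of that value. Their median reads were 132, 45 and 53.5 among the controls and 35, 72 and 63 after tunicamycin, an order close to that of the most frequent value. Import genes did likewise in 4 of 5, 9 of 11 and 7 of 7 cases among the controls and in 9 of 12, 7 of 8 and 5 of 8 after tunicamycin.

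**Figure D3:**
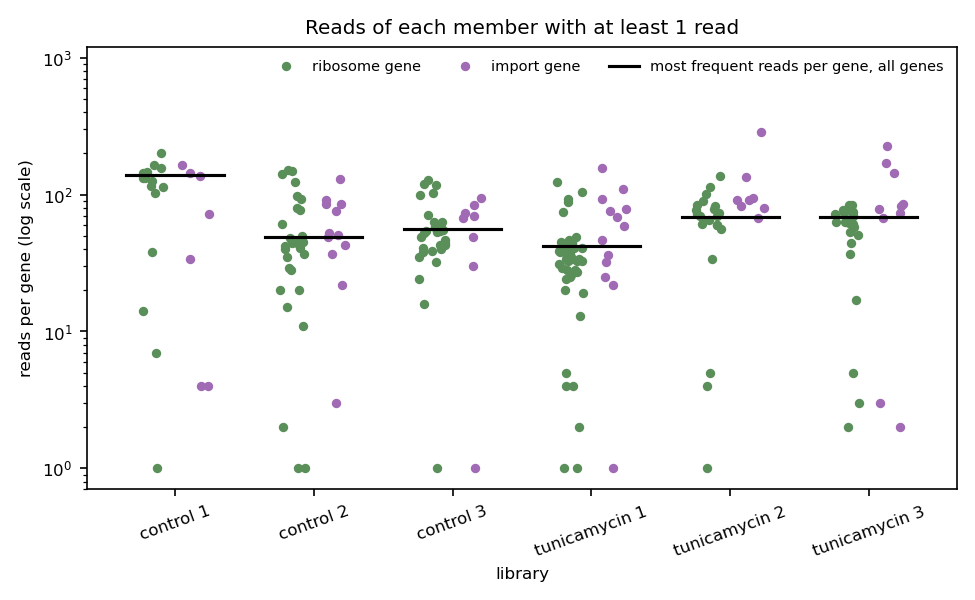
Reads (y axis, log scale) of each ribosome and import gene with at least 1 read, by library (x axis). Black lines mark the most frequent number of reads per gene over all genes, 139 in control 1 and 41.9 to 69.0 in the other libraries, and most members lie close to the line of their library.

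Between the groups, no ribosome gene and no import gene passed the test. limma on log2(FPKM + 1), fitted over 7696 genes whose mean FPKM reached 1, called 0 of the 64 ribosome genes tested and 0 of the 17 import genes tested at an adjusted p of 0.05, where 0.065% of all genes tested were called. At an unadjusted limma p of 0.05, 4 ribosome genes (6.25%) and 1 import gene (5.88%) passed, and 3.09% of all genes did. edgeR on reads called 0 in each set, where 0.039% of all genes were called. At an unadjusted edgeR p of 0.05 the counts were 0 and 1, and 1.49% of all genes passed. DESeq2 on reads called 0 of 18 ribosome genes and 1 of 9 import genes that it gave an adjusted p, where 1.26% of such genes were called. At an unadjusted DESeq2 p of 0.05, 4 of the 53 ribosome genes and 1 of the 13 import genes that it gave a p passed. Of all 6531 genes that it gave a p, 6.83% passed. All 64 ribosome genes tested and 15 of the 17 import genes were listed at 0 in at least 1 library, so a filter on the mean let in genes with reads in a single library.

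As whole sets the members had values on both sides of 0. On the log2(FPKM + 1) scale, libraries listed at 0 can give a gene a sign opposite to that of its difference in mean FPKM. Log2 fold changes, tunicamycin minus control, were positive for 29 and negative for 35 of the ribosome genes tested, with a median of -0.26 and a range of -2.52 to 6.33. Over all genes tested, 4013 were positive and 3683 negative, and the median was 0.10. Large-subunit genes had 14 positive and 23 negative values (median -0.53), and small-subunit genes 15 and 12 (median 0.11). Import genes had 10 positive and 7 negative values (median 0.16, range -2.33 to 6.82). The medians turned on single libraries. Without control 2 the ribosome median was 0.67, without control 3 it was 0.41, and without control 1 it was -0.72. The import median was 1.01 without control 2, 0.94 without control 3 and 1.15 without tunicamycin 2, while that of all genes was 0.28, 0.32 and 0.05.

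**Figure D4:**
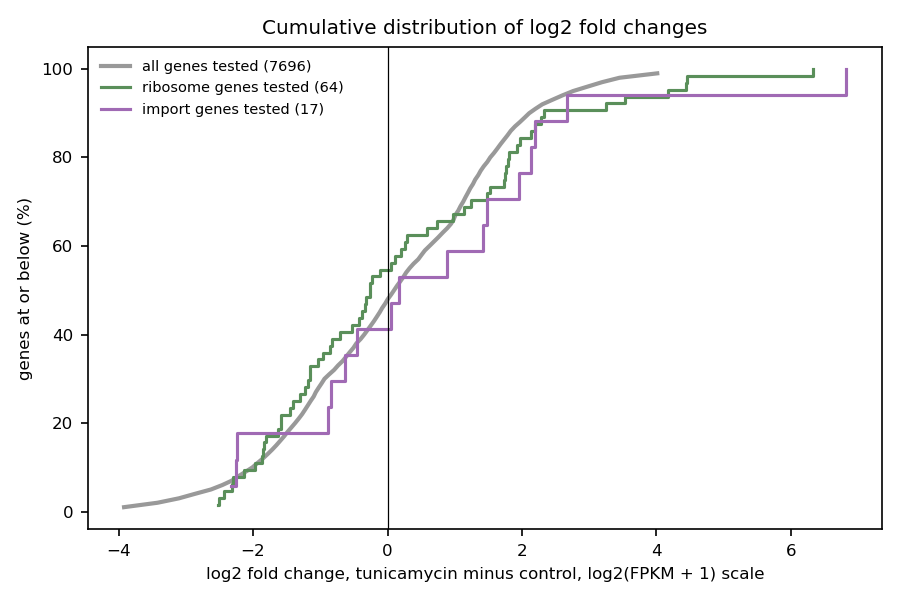
Percent of genes (y axis) at or below each log2 fold change (x axis, the difference tunicamycin minus control in log2(FPKM + 1)), for the 64 ribosome genes tested, the 17 import genes tested and percentiles of all 7696 genes tested. The curves run close together with medians of -0.26, 0.16 and 0.10, and the ends of the member curves on the right are Mrps18b (6.33) and Timm8b (6.82).

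Summed over all ribosome genes, the level was 1086, 1117 and 1473 FPKM among the controls and 1433, 1502 and 934 FPKM after tunicamycin. The means were 1225 ± 215 (SD, n = 3) and 1290 ± 310 FPKM (SD, n = 3), a ratio of 1.05, and the groups overlapped, since both the highest and the lowest of the 6 libraries were tunicamycin libraries. The ratio lay between 0.966 and 1.20 with any 1 library left out. The import genes summed to 383, 575 and 295 FPKM among the controls and 648, 528 and 558 FPKM after tunicamycin. Their means were 418 ± 143 and 578 ± 62.7 FPKM (SD, n = 3 each), a ratio of 1.38, which ranged from 1.21 to 1.70 with 1 library left out. The groups overlapped here as well, since control 2 lay above tunicamycin 2 and 3.

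In 5 members every tunicamycin library lay above every control library in FPKM, and in none did every control lie above. They were 4 of the 64 ribosome genes tested (Mrps18b, Mrps17, Mrpl9 and Mrpl34), or 6.25%, and 1 of the 17 import genes (Timm8b), or 5.88%. Among all genes tested 3.03% were higher without overlap, 2.72% were lower and 5.74% were either, so that a single gene more or less would bring the import share to 0 or well above this background. With 1 library left out the ribosome count was 4 to 8 (8 without tunicamycin 2, 7 without tunicamycin 3) and the import count 1 to 3 (3 without control 1 or tunicamycin 3), while the share of all genes higher without overlap was 4.42% to 7.93%. In the lower direction, 3, 1 and 2 ribosome genes lay below every control without control 1, 2 or 3, as did 1 import gene without control 3, and the share of all genes was 4.55% to 9.06% over the 6 libraries left out in turn. In reads, 4 of the 5 members (all but Mrps17) were higher without overlap, as were 2.88% of all genes tested. The upstream sequences of these 5 genes are shown because they are the members in which the groups separate. Each is the 250 bases before the start annotated in RefSeq on build GRCm38.p6, 5′ to 3′ on the gene's strand. These starts can differ from the gene positions given below, which are from GENCODE M21, and the Mrpl9 stretch ends inside the gene as placed there. Capitals mark the binding motif of ETS factors (CCGGAAG or its reverse complement) in Timm8b and Mrpl34, and that of NRF1, a factor known to drive nuclear genes of mitochondria, in Mrpl9, whose 10 capitals are the letters searched. In Mrps18b and Mrps17 none of the exact letter strings searched was found in these bases. Sites that differ from them by a letter were not searched. In GENCODE M21, Sdhd starts 98 bases from Timm8b and Ppp1r10 45 bases from Mrps18b, each on the opposite strand. These stretches therefore lie beside another gene's start as well.
Timm8b: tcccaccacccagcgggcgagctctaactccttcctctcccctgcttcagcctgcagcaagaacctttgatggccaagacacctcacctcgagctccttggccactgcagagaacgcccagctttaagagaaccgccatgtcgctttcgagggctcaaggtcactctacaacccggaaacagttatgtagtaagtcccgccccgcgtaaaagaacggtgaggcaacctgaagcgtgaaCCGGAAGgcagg
Mrps18b: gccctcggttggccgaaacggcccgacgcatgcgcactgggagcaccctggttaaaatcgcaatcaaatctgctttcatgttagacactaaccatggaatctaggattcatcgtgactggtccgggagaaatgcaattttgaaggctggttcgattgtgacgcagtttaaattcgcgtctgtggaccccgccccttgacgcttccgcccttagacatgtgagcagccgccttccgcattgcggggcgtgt
Mrps17: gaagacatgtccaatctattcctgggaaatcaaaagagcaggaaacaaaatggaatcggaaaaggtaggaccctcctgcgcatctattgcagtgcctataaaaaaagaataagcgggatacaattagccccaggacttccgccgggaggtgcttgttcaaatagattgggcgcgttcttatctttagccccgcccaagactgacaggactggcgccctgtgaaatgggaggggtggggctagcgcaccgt
Mrpl9: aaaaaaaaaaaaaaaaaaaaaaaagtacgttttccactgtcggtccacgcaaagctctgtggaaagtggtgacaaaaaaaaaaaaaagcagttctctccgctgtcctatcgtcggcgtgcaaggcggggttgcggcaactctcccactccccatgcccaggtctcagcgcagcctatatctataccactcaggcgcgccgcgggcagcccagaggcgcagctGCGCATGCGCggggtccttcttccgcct
Mrpl34: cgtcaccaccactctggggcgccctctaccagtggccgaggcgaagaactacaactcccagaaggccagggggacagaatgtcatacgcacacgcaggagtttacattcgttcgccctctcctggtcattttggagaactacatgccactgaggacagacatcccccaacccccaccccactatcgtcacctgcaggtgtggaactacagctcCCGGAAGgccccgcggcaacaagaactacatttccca
The positions are chr9:50603651-50603900 on the plus strand for Timm8b, chr17:35916441-35916690 on the minus strand for Mrps18b, chr5:129715247-129715496 on the plus strand for Mrps17, chr3:94443086-94443335 on the plus strand for Mrpl9 and chr8:71464676-71464925 on the plus strand for Mrpl34.

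Promoters of the whole sets were searched on both strands over 300 bases (250 before and 50 after the start), with 73 windows for 67 ribosome genes and 24 windows for 22 import genes. The ETS motif was in 32.9% of the ribosome windows and 41.7% of the import windows, against 8.86% of all 32851 promoter windows. The NRF1 motif was in 4.11% of the ribosome windows, in none of the import windows and in 0.971% of all. The YY1 motif (AAGATGGC) was in 16.4%, 4.17% and 2.75%. The motifs of the stress response of the endoplasmic reticulum were also searched. These were the ERSE (CCAAT and CCACG with 9 bases between them), the UPRE (TGACGTGG) and the composite site of ATF4 (TGATGCAA), and none was in a window of either set, against 0.119%, 0.676% and 0.895% of all promoters. At shares that low, 73 and 24 windows could hold no match and yet not differ from all promoters. All of these are matches of letters in fixed windows and describe the sequences only.

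Timm8b, a small TIM chaperone that works with Timm13 in handing hydrophobic precursors across the intermembrane space, was the import gene with the widest gap between groups. It was listed at 0 FPKM in all 3 controls and at 82.5, 143 and 118 FPKM in tunicamycin libraries 1, 2 and 3 (mean 115 ± 30.5, SD, n = 3). Its reads were 0 in each control and 59, 91 and 79 after tunicamycin. With the control group set to the limit of 3 reads the ratio was 77.2. That limit covers counting error only, and reads of detected members lay near a value set by the library, so the ratio is no lower bound. No control reached any tunicamycin library. The limma log2 fold change was 6.82 (SE 1.9, limma adjusted p = 0.237, unadjusted 0.000339), higher in 3 of 3 libraries. edgeR gave an adjusted p of 0.642 and DESeq2 one of 0.0487, the only call for a member in any setting, and over all settings the adjusted p ranged from 0.0487 to 0.886. The gene (ENSMUSG00000039016) lies on chromosome 9 from 50603910 to 50605320 on mm10, and 81 of its exon bases are shared with Nkapd1 on the opposite strand.

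The other small TIM chaperones were seen in few libraries. Timm9, the partner of Timm10, was at 126 FPKM in control 1 and listed at 0 in the other 5 libraries. Timm13 was at 41.4 FPKM in control 3 and 15.5 FPKM in tunicamycin 1. Timm10b was at 84.2 FPKM in tunicamycin 1 alone. Timm8a1, on the X chromosome in the mouse and a close relative of Timm8b, had 1 read in tunicamycin 1 and 3 reads in tunicamycin 3. Timm10 and Timm8a2 had no read. Of the 7 genes, 4 were tested, 2 with positive and 2 with negative values, and the group summed to 126, 0 and 41.4 FPKM among the controls and 183, 143 and 119 FPKM after tunicamycin. Timm8b was the largest part of the sum in tunicamycin 2 and 3, while in tunicamycin 1 Timm10b was slightly above it.

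Mrps18b, a small-subunit protein that is one of several mammalian relatives of a bacterial ribosomal protein, was the ribosome gene with the largest positive value. Controls 1, 2 and 3 had 0, 0.865 and 0.834 FPKM, and tunicamycin libraries 1, 2 and 3 had 31.3, 244 and 226 FPKM. Its reads were 0, 1 and 1 among the controls and 39, 83 and 76 after tunicamycin. The groups did not overlap on either scale. The limma log2 fold change was 6.33 (SE 1.82, limma adjusted p = 0.285, unadjusted 0.000518), and DESeq2 gave an adjusted p of 0.145. With 1 library left out the log2 fold change stayed between 5.83 and 7.29. On mm10 the gene (ENSMUSG00000024436) lies on chromosome 17 from 35910379 to 35916389. It shares 638 exon bases with Gm16279 on the opposite strand, and the processed pseudogene Gm13552 matches it at 99.76% identity over 417 bases, so its reads are uncertain. Of its relatives, Mrps18a was at 52.2 FPKM in control 3 and 65.6 FPKM in tunicamycin 1, with no reads in the other 4 libraries, and Mrps18c had none in any.

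Mrps17, a small-subunit protein of the ribosomal RNA binding kind, was listed at 0 FPKM in controls 1 and 3 and at 35.8 FPKM in control 2. After tunicamycin it was at 117, 75.7 and 41.0 FPKM. In FPKM the lowest tunicamycin library lay just above the highest control, but in reads the groups overlapped, with 0, 44 and 0 reads among the controls and 35, 90 and 51 after tunicamycin. The limma log2 fold change was 4.45 (SE 1.78, limma adjusted p = 0.852, unadjusted 0.0123). Its number of reads per FPKM differed 4.33-fold between libraries. The gene (ENSMUSG00000034211) lies on chromosome 5 from 129715497 to 129722556.

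Mrpl9, a large-subunit protein, was listed at 0 FPKM in each control, and its tunicamycin libraries were at 40.8, 80.8 and 0.736 FPKM. It had no control read and 44, 79 and 2 reads in tunicamycin libraries 1, 2 and 3. The ratio was 42.1 over the limit of 3 reads, which covers counting error only. The groups did not overlap, but in tunicamycin 3 the separation rested on 2 reads, fewer than that limit. The limma log2 fold change was 4.18 (SE 2.05, limma adjusted p = 0.852). The gene (ENSMUSG00000028140) lies on chromosome 3 from 94443318 to 94451130 and shares 157 exon bases with Oaz3 on the opposite strand.

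Mrpl34, also of the large subunit, was listed at 0 FPKM in each control, and its tunicamycin libraries were at 4.25, 5.89 and 41.6 FPKM. Its reads were 0 in each control and 4, 5 and 37 after tunicamycin. The ratio was 15.5 over the limit of 3 reads, which covers counting error only. Tunicamycin 3 was well above the other libraries of its group. The gene (ENSMUSG00000034880) lies on chromosome 8 from 71464959 to 71465747. The limma log2 fold change was 3.53 (SE 2.01, limma adjusted p = 0.852, unadjusted 0.0793). Mrpl27, another large-subunit gene, had a log2 fold change of 4.44 (limma adjusted p = 0.852, unadjusted 0.0309), but its groups overlapped, it being at 130 FPKM in tunicamycin 1 and 77.0 FPKM in tunicamycin 3 and listed at 0 elsewhere.

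**Figure D5:**
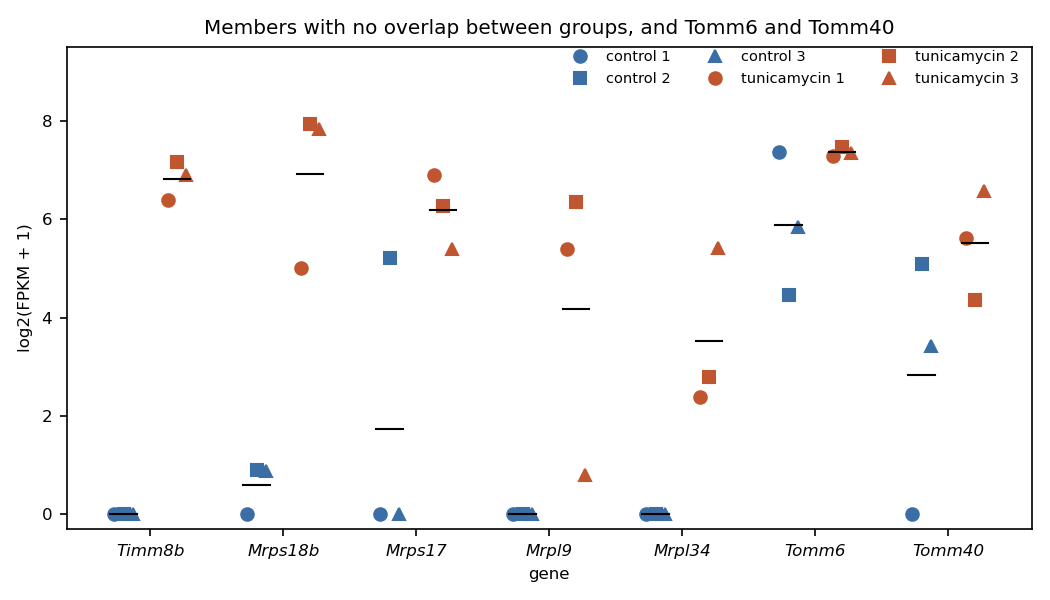
log2(FPKM + 1) (y axis) of the 5 members whose groups did not overlap and of Tomm6 and Tomm40, for each control library (blue) and tunicamycin library (orange), with black lines at the mean of each group's 3 values. Timm8b, Mrpl9 and Mrpl34 were listed at 0 in all controls, whereas Tomm6 and Tomm40 overlapped between groups.

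The ribosome genes with the highest mean levels apart from Mrps18b were Mrps23, Mrps24 and Mrpl17. Mrpl17, a large-subunit protein, was at 93.0, 140 and 6.55 FPKM among the controls and 71.6, 27.1 and 0 FPKM after tunicamycin. In FPKM the groups overlapped, but its reads (113, 93 and 47 against 42, 34 and 0) were higher in every control. It was the only one of the 81 members tested with lower reads after tunicamycin without overlap, where 2.51% of all genes tested were lower in reads in this way. The limma log2 fold change in FPKM was -1.87 (SE 1.60, limma adjusted p = 0.852), and it was -0.04 without tunicamycin 3, -1.07 without control 2, -3.18 without control 3 and -3.13 without tunicamycin 1. Reads per FPKM of Mrpl17 differed 12.1-fold between libraries, the most of any ribosome gene.

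Mrps23, a small-subunit protein, was at 350 FPKM in control 3 and 31.0 FPKM in tunicamycin 2 and listed at 0 elsewhere, on 103 and 65 reads. Its FPKM differed far more than its reads, and the log2 fold change of -1.15 (limma adjusted p = 0.906) became 1.67 without control 3. Mrps24, of the same subunit, was at 0, 42.5 and 53.2 FPKM among the controls and 33.4, 228 and 0 FPKM after tunicamycin. The log2 fold change of 0.58 (limma adjusted p = 0.967) became -1.18 without tunicamycin 2, the library with the high value, and -1.29 without control 1. Mrps24 shares 226 exon bases on the same strand with Urgcp.

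Mrps36, now known as a subunit of the oxoglutarate dehydrogenase complex and not of the ribosome, was at 80.9 FPKM in control 2 and 63.1 FPKM in tunicamycin 2, with no reads elsewhere. Among the ribosome genes with reads in 5 libraries, Mrpl38 lacked reads in tunicamycin 3 and Mrpl37 and Mrpl15 lacked them in control 1. Mrpl37 was at 0, 25.0 and 38.4 FPKM among the controls and 19.8, 32.1 and 56.7 FPKM after tunicamycin. Mrpl38 was at 72.0, 35.3 and 54.5 FPKM among the controls and 52.2, 62.9 and 0 FPKM after tunicamycin. Both overlapped between groups, the libraries without reads being the lowest of each.

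In the TOM complex, the outer membrane gate, all 6 genes tested had positive limma log2 fold changes and none passed the test. Of all 7696 genes tested, 4013 were positive. On reads Tomm5 was negative (-0.11 with DESeq2 and -0.082 with edgeR). Tomm6, a small subunit that stabilises the complex, was the member with the highest mean level in the import set. It was at 165, 20.8 and 56.7 FPKM in the controls (mean 80.8 ± 75.0, SD, n = 3) and at 154, 177 and 161 FPKM after tunicamycin (mean 164 ± 11.6, SD, n = 3). The tunicamycin libraries were alike and the controls were spread, control 1 lying within the range of the tunicamycin group, and the log2 fold change of 1.47 did not pass (SE 1.00, limma adjusted p = 0.852). It was 0.75 without control 2, the lowest library, and 2.22 without control 1. Reads were 165, 22 and 94 against 157, 134 and 171. Tomm6 shares 859 exon bases with the gene Gm21981 on the same strand, so the split of reads between them is uncertain.

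Tomm40, the channel, had 0, 86 and 49 reads among the controls and 69, 91 and 225 reads after tunicamycin. Its levels were 0.000112, 33.2 and 9.78 FPKM against 47.9, 19.4 and 94.8 FPKM. The groups overlapped, control 2 being above tunicamycin 2, and the log2 fold change was 2.67 (SE 1.72, limma adjusted p = 0.852), or 1.25 without control 1.

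Of the receptors, Tomm22 was at 33.1 FPKM in control 2 and at 61.3 and 50.6 FPKM in tunicamycin 2 and 3, and listed at 0 in the others. Tomm20, the presequence receptor, was at 0.467, 8.53 and 3.19 FPKM among the controls and 9.92, 32.9 and 0 FPKM after tunicamycin. Tomm70a, the receptor for carrier proteins and their chaperones, was at 11.2, 0.450 and 0 FPKM among the controls and 3.13, 10.3 and 21.1 FPKM after tunicamycin. In each of the 3 the groups overlapped. Tomm20 has 10 similar pseudogene transcripts, so its reads are uncertain.

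Tomm5, a small subunit, was at 99.7 FPKM in control 2 and 141 FPKM in tunicamycin 1 alone, with a log2 fold change of 0.16 that became -2.22 without tunicamycin 1 and -0.94 without control 1 or 3. Summed over the 7 genes, the TOM complex was at 177, 196 and 69.6 FPKM among the controls and 356, 301 and 328 FPKM after tunicamycin. The means were 147 ± 68.0 and 328 ± 27.5 FPKM (SD, n = 3 each), a ratio of 2.23, and every tunicamycin library was above every control. The sum of reads followed the same order, with 241, 309 and 173 among the controls and 419, 674 and 622 after tunicamycin. Without Tomm6, the sums were 11.7, 175 and 13.0 against 202, 124 and 167 FPKM, and the groups overlapped. The genes behind the sum differed by library. After Tomm6, Tomm5 added most in tunicamycin 1 and Tomm40 added most in tunicamycin 3. The grouping was chosen with results of these data known, so the sum carries no test.

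In the TIM23 complex, the presequence translocase of the inner membrane, 1 of 5 genes tested had a positive value and 4 had negative ones, with a median of -0.84. Timm23, the channel-forming subunit, was at 146 FPKM in control 3, 48.9 FPKM in tunicamycin 1 and 55.1 FPKM in tunicamycin 3, and listed at 0 in the rest. Its mean was 48.8 FPKM among the controls and 34.7 FPKM after tunicamycin. Its log2 fold change was 1.42 (limma adjusted p = 0.854), of the opposite sign to the difference in means. It lay between 0.21 and 0.50 without control 1, control 2, tunicamycin 1 or tunicamycin 3, and was 3.82 without control 3 and 3.32 without tunicamycin 2. For Timm23, 6 pseudogenes have similar transcripts. Gm10273, annotated as protein-coding, matches it at 99.9% identity over 1121 bases, so the reads of Timm23 are uncertain. Timm17a, which pairs with Timm23, was at 7.97, 138 and 0 FPKM among the controls and 0, 58.3 and 2.70 FPKM after tunicamycin. Its paralogue Timm17b was at 107 FPKM in control 2 alone.

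Timm50, the presequence receptor of TIM23, was at 61.2, 58.3 and 0 FPKM among the controls and 0, 0 and 33.9 FPKM after tunicamycin. Timm44, which tethers the import motor, was at 33.4 FPKM in control 2 and 8.19 FPKM in tunicamycin 1. Timm21 had a single read, in control 3. The complex summed to 69.2, 337 and 147 FPKM among the controls and 57.1, 58.3 and 91.7 FPKM after tunicamycin. The groups overlapped, control 1 lying between tunicamycin 2 and 3, and no gene of the complex passed the test.

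The remaining import genes lie outside these complexes. Tomm34, a cytosolic co-chaperone, was at 11.0, 15.8 and 18.0 FPKM among the controls and 22.2, 25.3 and 0 FPKM after tunicamycin, with a log2 fold change of -0.88 (limma adjusted p = 0.931). In both tunicamycin libraries with reads it lay above all controls, and it had no read in tunicamycin 3. Tomm40l, a paralogue of the channel, was at 0, 26.5 and 19.4 FPKM among the controls and 30.2, 0 and 19.1 FPKM after tunicamycin, and shares 3304 exon bases with Nr1i3 on the opposite strand. Timmdc1, an assembly factor of respiratory complex I in spite of its name, had no read.

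The genes that work beside these members were counted from lists. Of 36 genes of mitochondrial translation in the table (factors, assembly proteins and ribosomal proteins under other names), 13 had no read and 21 were tested, 7 with positive and 14 with negative values (median -0.53). None was called by limma, edgeR or DESeq2, and at an unadjusted p of 0.05 the counts were 0, 1 and 1, where 3.09%, 1.49% and 6.83% of all genes passed. The DESeq2 share is of the genes that it gave a p. Of 35 import partners (motor, peptidases, sorting machinery, matrix chaperones and proteases), 6 had no read and 29 were tested, 12 with positive and 17 with negative values (median -0.49). None was called by the 3 tools, with 0, 0 and 1 at an unadjusted p of 0.05, against the same shares of all genes.

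Hspd1, the matrix chaperonin that folds imported proteins, was the only partner with FPKM higher in every tunicamycin library, 1 of the 29 import partners and 21 translation partners tested, where 3.03% of all genes tested were higher in this way. It was at 56.9, 72.6 and 98.4 FPKM in the controls (mean 76.0 ± 20.9, SD, n = 3) and 230, 461 and 104 FPKM after tunicamycin (mean 265 ± 181, SD, n = 3). Tunicamycin 3 lay just above control 3, and in reads the groups overlapped, with 227, 302 and 407 against 386, 371 and 118. The log2 fold change was 1.57 (SE 0.89, limma adjusted p = 0.852).

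FPKM and reads of 1 gene did not always keep the same ratio across libraries. Among genes with at least 10 reads in at least 2 libraries, reads per FPKM differed by over 2-fold between libraries for 15 of 42 ribosome genes (35.7%) and 5 of 14 import genes (35.7%), against 36.1% of all such genes. The cause was not tested. The members concerned include Mrps17, Mrps18b, Mrps23, Mrpl17 and Tomm40, and for these the size of a difference in FPKM is not that in reads. In GENCODE M21, 101 of the 102 members were found. Of these, 42 share exon bases with another gene, 37 on the opposite strand, and 27 ribosome and 7 import genes have a pseudogene transcript with at least 90% identity over at least 200 bases. The library kit marks strand, and the sources used here do not say whether the counting used it.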

How the data were processed

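Ribosomal RNA was depleted from total liver RNA and stranded, paired-end libraries were sequenced, per the labels' protocols. HISAT2 2.0.4, cutadapt 1.9.3, CASAVA 1.8 and the build mm10 are named in the submitters' processing notes, with Cuffdiff from Cufflinks, for which the sources used here give no version. FPKM and an estimated count per gene and library were deposited by the authors for 22564 genes, and 1 emptied line was not analysed here. The deposited estimated counts are not whole and the sources used here do not give their scaling. Per library, 97.2% to 98.0% of the positive values were multiples of 1 step (within 0.01), and whole reads were had by dividing by that step and rounding.

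The main test was limma 3.58.1 in R 4.3.3 (variance trend, group only, 2-sided) on log2(FPKM + 1) for the 7696 genes whose mean FPKM reached 1, with Benjamini-Hochberg adjustment over all of them. The limma prior had infinite degrees of freedom, so each SE came from the trend over genes and not from the gene's own spread. Fold changes on this scale understate changes of low genes. They also depend on how many libraries of each group were listed at 0, and their sign can oppose that of the difference in mean FPKM. Examples are Timm23 (1.42, ratio of mean FPKM 0.710), Mrps21 (-0.24, ratio 2.10) and Tomm34 (-0.88, ratio 1.06). edgeR 4.0.16 (quasi-likelihood, TMM) and DESeq2 1.42.0 (poscounts) on reads were alternatives, since the count columns are scaled estimates. Other alternatives covered the pseudocount, the filter, scaling, the variance trend, a replicate block and each library left out. Members, roles and partner lists were chosen with earlier results of these data known. Values in every library are given for members with no overlap between groups, called by any tool, above 0 in all libraries or among the 4 highest mean levels of each set, and for preset import genes. The other members named were chosen after their values were seen, as were the left-out counts of members without overlap and the TOM sum without Tomm6. Exon overlaps came from GENCODE M21, similar transcripts from blastn, and promoters from RefSeq on GRCm38.p6.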

Additional observations from a re-analysis of the deposited data

How the results depend on the processing

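The count of ribosome genes called was 0 in every alternative, as was that of the partner genes, with each library left out included (0 to 0). The import count was 0 in every alternative but DESeq2, where it was 1 (Timm8b). Of all genes tested, 5 were called, against 44 with DESeq2, 3 with edgeR, 2 at a mean FPKM of at least 5, and 0 with no filter, with no variance trend or with any 1 library left out. With 1 library left out the ribosome median ranged from -0.72 to 0.67 and the import median from 0 to 1.15. It moved beyond the spread between replicates without control 2 (0.67 and 1.01), without control 3 (0.41 and 0.94) and, for import genes, without tunicamycin 2 (1.15). In the other alternatives the ribosome median was -0.30 to 0.18 and the import median 0.16 to 0.23. Log2 fold changes turned sign for Mrps23 (1.67 without control 3), Mrps24 (-1.29 without control 1, -1.18 without tunicamycin 2) and Tomm5 (-0.11 with DESeq2, -0.082 with edgeR, -0.94 without control 1 and without control 3, -2.22 without tunicamycin 1), and the cause was not tested. With 1 library left out these 3 genes ranged from -2.82 to 1.67, from -1.29 to 2.74 and from -2.22 to 2.38. The other 9 members followed through all alternatives kept their direction. With 1 library left out, Mrpl17 ranged from -3.18 to -0.04, Timm23 from 0.21 to 3.82, Tomm40 from 1.25 to 3.80 and Tomm6 from 0.75 to 2.22, and Timm8b passed the threshold with DESeq2 alone (log2 fold change 8.72). The replicate block called 0 members and 0 of all genes and left the medians at -0.26 and 0.16. Libraries with the same number did not deviate together (correlations of -0.01, -0.01 and 0.00 across genes). Libraries with different numbers gave -0.01 to 0.02. With few genes detected per library such correlations could miss a pairing, so whether the numbers pair the samples was not settled. Every member but Tomm6 had no read in at least 1 library, which limits the comparison of single genes. Why reads were missing was not tested.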
